A study of Mus musculus with 6 samples.

Results

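KO-high peaks are regions called as ATF3 peaks in wild-type (WT) macrophages at which the library from Atf3-/- (KO) macrophages holds more ChIP-seq tags than the WT library itself. They were taken from the autosomal peaks of the 3 standard lists, which the authors called on the WT libraries without the knockout as control, and were selected on the tags themselves, by the rule that KO tags exceed WT tags. In unstimulated cells 239 of 2574 autosomal peaks met the rule (9.29%, Wilson 95% interval 8.22 to 10.5). The number was 232 of 5080 for HDL (4.57%, 4.03 to 5.18) and 819 of 3541 for HDL + CpG (23.1%, 21.8 to 24.5). In all, 1290 of 11195 autosomal peaks were members, out of 11888 standard peaks on all chromosomes. The cells were bone marrow-derived macrophages (BMDMs), differentiated from C57BL/6 marrow over 6 days in 40 ng/ml M-CSF, with WT donors aged 6 to 8 weeks and matched in age to the KO mice. Cells of each genotype, Atf3 +/+ or Atf3 -/-, were left untreated, kept with HDL (2 mg/ml) over 6 h, or kept with HDL in that way and then given 100 nM CpG over 4 h. HDL, a lipoprotein, takes up cellular cholesterol. CpG oligonucleotides stimulate macrophages through Toll-like receptor 9. Chromatin was precipitated with 2.5 µg of one rabbit polyclonal anti-Atf3 antibody in all groups, the Atf3 -/- cells included.

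The authors pooled 3 biological replicates, so each condition has 1 WT and 1 KO library and no spread between mice can be given. The 6 libraries hold 37137377 to 75534584 reads. The KO library was 2.03 times as deep as the WT library in unstimulated cells, 1.74 times with HDL and 0.960 times with HDL + CpG. Tags are reads scaled by the authors to libraries of 10000000, so that 1 read is worth between 0.132 and 0.269 tags. All intervals cover counting error only, and every test below compares lists of peaks and not mice or conditions. The lists hold no expression values, so the labelled cell type was not checked against macrophage markers. How the Atf3 allele was disrupted is not given in the sources used here, so reads at Atf3 do not check the genotype.

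ATF3 belongs to the bZIP transcription factors, which dimerise through a leucine zipper and recognise AP-1 or CRE elements. Stress and Toll-like receptor ligands induce it. In macrophages it is known as a repressor of cytokine genes. An antibody can also precipitate chromatin that does not carry its target, and a knockout library measures that signal at the same positions. Reads from repeated DNA are difficult to place, because satellites, endogenous retroviruses and LINE elements exist in many similar copies, and copies that are missing from the assembled genome add their reads to those that are present.

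The first set comes from satellite DNA and is shown because peaks on 3 chromosomes have it in common, among them the member with the most tags. The peaks near Chl1, Lrrc4c and Dpy19l1 shared 1 identical run of 39 bases, shown here in capitals with 40 bases to each side (mm9, strand as written). They lie at chr6:103599166-103599284 (plus strand, intron 4 of Chl1), chr2:98506425-98506543 (plus strand, intergenic) and chr9:24346525-24346643 (minus strand, intergenic).
Chl1: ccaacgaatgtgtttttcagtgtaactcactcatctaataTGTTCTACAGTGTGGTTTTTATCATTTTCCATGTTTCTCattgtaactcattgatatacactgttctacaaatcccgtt
Lrrc4c: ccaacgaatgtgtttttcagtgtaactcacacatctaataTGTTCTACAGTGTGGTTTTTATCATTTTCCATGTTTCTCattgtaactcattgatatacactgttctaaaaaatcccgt
Dpy19l1: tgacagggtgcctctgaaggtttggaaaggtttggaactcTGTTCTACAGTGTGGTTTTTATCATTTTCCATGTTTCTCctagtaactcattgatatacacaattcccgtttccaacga
The second set is shown because simple repeats made up the largest class with HDL + CpG. Capitals mark uninterrupted runs of at least 4 GA units or at least 2 CCCTAA units in the 121 bases around the peak centre. The positions are chr10:93550538-93550658 in intron 3 of Fgd6 and chr2:91933736-91933856 (intergenic, nearest to Creb3l1), both on the plus strand.
Fgd6: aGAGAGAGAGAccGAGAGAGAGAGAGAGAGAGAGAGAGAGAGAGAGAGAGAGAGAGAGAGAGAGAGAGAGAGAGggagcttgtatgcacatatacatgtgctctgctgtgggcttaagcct
Creb3l1: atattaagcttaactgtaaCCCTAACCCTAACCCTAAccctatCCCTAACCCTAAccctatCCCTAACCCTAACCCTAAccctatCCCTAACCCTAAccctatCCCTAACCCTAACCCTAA

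The tags that defined the members are given as a description, with no test. The median KO-high peak had 13.2 WT and 15.1 KO tags in unstimulated cells, 16.9 and 20.1 with HDL, and 10.7 and 13.5 with HDL + CpG. The remaining autosomal peaks had 11.04 WT and 6.22 KO tags, 11.1 and 4.62, and 10.5 and 5.05. Members thus had WT tags near or above those of other peaks, and more than 2 times their KO tags. The excess itself was small at most sites, with a median WT/KO of 0.906, 0.894 and 0.867. KO tags were at least 25% above WT tags at 40 members in unstimulated cells, 50 for HDL and 275 for HDL + CpG. A 2-fold excess was found at 0, 0 and 12 members. The exact interval of WT/KO lay wholly below 1 at 22 (9.21%), 38 (16.4%) and 133 (16.2%) of them, so for most members the 2 libraries were equal within counting error. The member nearest to equal tags in each list had 6.73 WT against 6.75 KO tags (nearest to Cdh20, unstimulated), 10.28 against 10.29 (Zfp143, HDL) and 25.88 against 25.89 (Tenm4, HDL + CpG). The nearest peaks on the other side had 16.43 against 16.42 tags (Hsd17b13), 12.13 against 12.11 (Gm6634) and 5.26 in both libraries (Pard6g). The peak caller ranked the members above the rest, with median MACS scores of 69.0, 79.9 and 70.8 against 57.6, 57.6 and 53.5, and no KO-high peak overlapped a KOIN-corrected peak, a list from which peaks with WT/KO under 2 had been removed.

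**Figure D1:**
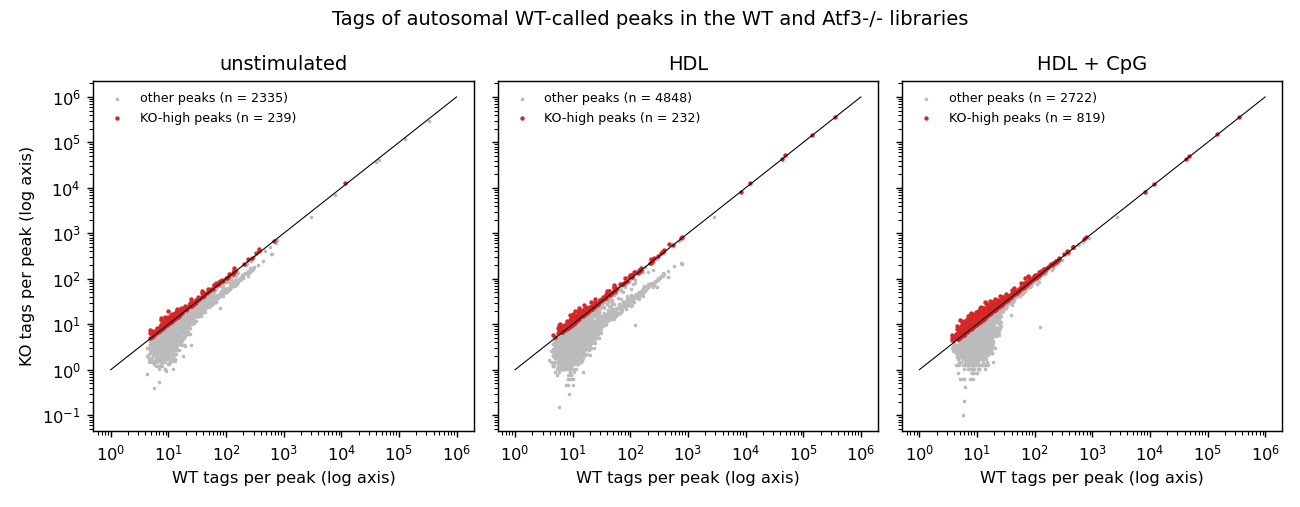
KO tags against WT tags (scaled to 10000000 reads, log axes) for each autosomal standard peak, with the KO-high peaks in red and the line of equal tags. The members follow the line closely up to the satellite peaks at the top, and the single other peak with 0 KO tags is drawn at 0.1.

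The members with the most tags lay in or beside satellite DNA. The satellite block nearest to Lrrc4c, a synaptic adhesion gene more than 1000 kb away, held 359992 WT and 370004 KO tags for HDL and 346544 against 356977 for HDL + CpG. The neighbouring peak, centred on an L1_Mur2 LINE element with HDL and on GSAT_MM with HDL + CpG, held 141432 WT and 147476 KO tags, then 143838 and 149993. In unstimulated cells the peak at the first of these sites held 336565 WT and 302218 KO tags, the opposite order. The GSAT_MM (major satellite) peaks nearest to 1700012B15Rik and 4933422A05Rik had the same pattern, with WT/KO of 0.937 and 0.966 with HDL, 0.954 and 0.976 with HDL + CpG, and 1.12 and 1.11 in unstimulated cells. These sites therefore crossed the threshold in both stimulated conditions on differences of a few percent. The SYNREP_MM peak in intron 4 of Chl1, a neural cell adhesion gene, was KO-high in all 3 conditions, with 11810 WT and 12850 KO tags in unstimulated cells, 12034 and 12891 with HDL, and 11665 and 12431 with HDL + CpG.

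Members with the lowest WT/KO, among those with at least 30 WT reads, are given next, as a description. Each was selected on the libraries of its condition, which in part fixes its low WT and high KO tags there. In unstimulated cells the lowest was the ETnERV2-int peak nearest to Klk1b24, a kallikrein gene, with 9.96 WT and 19.5 KO tags (WT/KO 0.512, exact interval 0.347 to 0.738). The same site had 17.1 and 17.9 tags with HDL and 21.8 and 18.7 with HDL + CpG, so that the KO tags were close to each other in the 3 libraries and the WT tags were lowest in unstimulated cells. The next were an IAPEy-int peak nearest to 4930474H20Rik (0.608), an L1Md_F2 peak nearest to Gm20268 (0.633), an L1MA4 peak nearest to Gm17821 (0.652) and a site off repeats nearest to Galr1 (0.678). With HDL the lowest were intergenic peaks near Tmem132b (10.8 WT and 19.8 KO tags, WT/KO 0.545) and Rpp21 (12.7 and 23.2, 0.546), the second on a CpG island with a GC content of 70.6%. In the other conditions both had values around 1, between 0.934 and 1.31. The Galr1 site was again among the lowest with HDL (0.553), with Lmbrd1 (IAPEy-int, 0.587) and Cmpk2 (L1Md_F2, 0.602).

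With HDL + CpG, 4 of the 5 lowest lay on repeats. The (GA)n repeat in intron 3 of Fgd6 had 13.8 WT and 30.3 KO tags (WT/KO 0.453, 0.335 to 0.609). This is the first of the simple repeats printed above. At the same site the WT library was higher in unstimulated cells (24.0 against 15.5 tags) and with HDL (29.3 against 10.3). Intron 1 of Fbxw7, a ubiquitin ligase subunit, carried no repeat and had 7.88 WT and 17.3 KO tags, against 19.9 and 10.1 in unstimulated cells and 16.1 and 7.11 with HDL. The CCCTAA repeat nearest to 5031425F14Rik (0.467), the L1Md_F2 element in intron 1 of the pheromone receptor gene Vmn2r13 (0.468) and the (TC)n repeat in intron 1 of Ldb2 (0.486), a LIM-domain cofactor, completed the set. At Fgd6 and Fbxw7 the order of the libraries turned between conditions, with more KO and fewer WT tags with HDL + CpG than in either other condition. Both sites were selected for a low WT/KO in the HDL + CpG libraries, which in part fixes this order.

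Repeat content set the members apart from the remaining peaks, and the class differed by condition. The class is the repeat that the authors' annotation names at the peak centre. Peaks without a repeat, or off repeats, are those for which it names none. They include every promoter peak, where the annotation gives the promoter in place of any repeat. Long terminal repeat (LTR) elements, the remains of endogenous retroviruses, held 70 of 239 members in unstimulated cells (29.3%, 23.9 to 35.3) against 9.59% of other peaks, an odds ratio of 3.9 (adjusted p = 4.32e-15, two-sided Fisher's exact test, Benjamini-Hochberg over 18 tests). With HDL they held 84 of 232 (36.2%) against 6.91%, an odds ratio of 7.65 (adjusted p = 2.46e-34 by Fisher's exact test). With HDL + CpG they held 101 of 819 (12.3%) against 9.15%, an odds ratio of 1.4 (adjusted p = 0.0137 by Fisher's exact test), which was lost under 3 of the alternatives tried. LINE elements were over-represented in unstimulated cells (15.5% against 8.31%, odds ratio 2.02, adjusted p = 8.60e-04 by Fisher's exact test) and with HDL (15.9% against 6.08%, 2.93, adjusted p = 6.57e-07), but not with HDL + CpG (7.81% against 8.74%, adjusted p = 0.520). SINE elements did not pass the test in any condition, with odds ratios of 1.09 to 1.13. Satellites were few but frequently KO-high, at 13 of 19 peaks with HDL (odds ratio 47.9, adjusted p = 1.73e-13), 13 of 20 with HDL + CpG (6.26, adjusted p = 1.33e-04) and 5 of 22 in unstimulated cells (2.91, adjusted p = 0.0603, all by Fisher's exact test). With KO tags required to be at least 25% above WT tags, the satellite call was lost with HDL (odds ratio 2.54) and the odds ratio with HDL + CpG turned to 0.287, and the LINE calls were lost in unstimulated cells (1.81) and with HDL (2.36). Peaks without a repeat made up 22.6%, 24.6% and 23.2% of members against 41.5%, 55.4% and 59.4% of other peaks (adjusted p = 1.35e-08, 6.09e-20 and 1.93e-75 by Fisher's exact test), and the first of these calls was lost with at least 100 reads (0.790) or a MACS score of at least 60 (0.691).

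Simple and low-complexity repeats changed sides. They were under-represented among members in unstimulated cells (58 of 239, 24.3%, against 31.8%, odds ratio 0.687, adjusted p = 0.0216 by Fisher's exact test) and with HDL (21 of 232, 9.05%, against 24.7%, odds ratio 0.303, adjusted p = 8.75e-09). The first of these calls was lost with the same margin (0.948). With HDL + CpG they were the largest class, at 397 of 819 members (48.5%, 45.1 to 51.9) against 15.7%, an odds ratio of 5.07 (adjusted p = 1.93e-75 by Fisher's exact test). Read the other way, 7.24% of such peaks were KO-high in unstimulated cells, 1.72% with HDL and 48.2% with HDL + CpG.

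**Figure D2:**
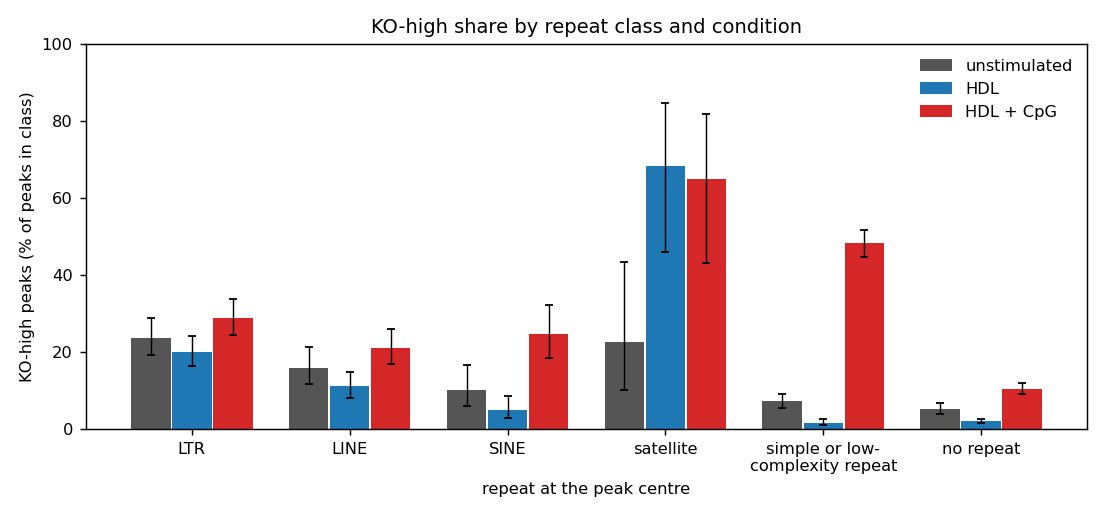
Share of autosomal standard peaks that were KO-high (percent, bars from 0, with Wilson 95% intervals), by the repeat at the peak centre and by condition. Simple or low-complexity repeats stood at 7.24%, 1.72% and 48.2%, while peaks without a repeat stood at 5.28%, 2.08% and 10.5%.

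Within the retroviral class, IAPEy-int held the most members. IAPEy is a family of intracisternal A particle proviruses, which belong to the ERVK group. KO tags exceeded WT tags at 31 of 66 IAPEy-int peaks in unstimulated cells, 39 of 61 for HDL and 31 of 81 for HDL + CpG. Among LTR peaks it made up 44.3% of members against 15.6% of others in unstimulated cells, 46.4% against 6.57% with HDL and 30.7% against 20.1% with HDL + CpG (odds ratios 4.29, 12.3 and 1.76, adjusted p = 3.31e-06, 3.85e-16 and 0.0366, Fisher's exact test chosen after the values were seen). Its median WT/KO stayed near 1 throughout, at 1.02, 0.960 and 1.08. The members nearest to Gm8267 and Rpap3, on chromosomes 14 and 15, hold an identical run of 234 bases. MTA_Mm elements were KO-high at 8 of 15 peaks in unstimulated cells, 3 of 19 for HDL and 4 of 19 for HDL + CpG. L1Md_F2, an evolutionarily young LINE-1 family, was KO-high at 13 of 53, 12 of 64 and 18 of 71 peaks (24.5%, 18.8% and 25.4%), beside 9.29%, 4.57% and 23.1% of all peaks. Fragments resembling the large ribosomal RNA (LSU-rRNA_Hsa) were KO-high at 2 of 45, 8 of 39 and 10 of 40 peaks (4.44%, 20.5% and 25%). With HDL + CpG the shares of MTA_Mm, L1Md_F2 and LSU-rRNA_Hsa were close to that of all peaks, while IAPEy-int stood at 38.3% (28.4 to 49.2). A high share was not particular to IAPEy-int. IAPLTR3-int was KO-high at 6 of 14, 7 of 12 and 6 of 13 peaks. All ERVK peaks, IAPEy-int included, were KO-high at 29.3%, 34.3% and 35.7%. The LTR groups ERV1 and MaLR stood at 13.3%, 28.2% and 30.6%, and at 15.9%, 3.31% and 20.6%. An LSU-rRNA_Hsa peak lies in intron 2 of Cdk8, a Mediator kinase gene. It had 77.3 WT and 70.2 KO tags in unstimulated cells, 79.4 and 65.4 with HDL, and 69.5 and 72.4 with HDL + CpG. Only the last is KO-high, and the interval of its WT/KO (0.825 to 1.12) includes 1.

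The simple repeats differed by their unit. Repeats of GA or TC were KO-high at 42 of 337 peaks in unstimulated cells (12.5%), 2 of 586 for HDL (0.341%) and 199 of 345 for HDL + CpG (57.7%, 52.4 to 62.8). Among simple-repeat peaks this unit was over-represented in members in unstimulated cells (76.4% against 41.4%, odds ratio 4.58) and with HDL + CpG (52.2% against 36.7%, 1.89), and under-represented with HDL (10.0% against 52.0%, 0.103; adjusted p = 2.12e-06, 2.19e-05 and 1.47e-04, Fisher's exact test chosen after the values were seen). CA or TG repeats were KO-high at 7 of 151 (4.64%), 3 of 248 (1.21%) and 69 of 168 peaks (41.1%). The shares over all autosomal peaks were 9.29%, 4.57% and 23.1%. Repeats of TTAGGG or CCCTAA, the telomere unit found inside chromosomes, were KO-high at 0 of 79 and 0 of 84 peaks, which allows shares of up to 3.80% and 3.57% (3 counts of the total, the limit used here for every count of 0), and at 36 of 82 with HDL + CpG (43.9%). Their WT/KO had a median of 1.76, 2.95 and 1.01. The longest uninterrupted GA or TC run in the 201 bases at the centre was measured in members and in other GA or TC peaks. Both groups had a median of 28.0 bases in unstimulated cells and 31.0 with HDL + CpG. A permutation test of medians cannot inform where they are equal, so its p-value is not given. With HDL the medians were 36.5 bases in 2 members and 31.0 in 584 other peaks, which was not tested.

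Telomere-unit members lay nearest to Creb3l1, a bZIP gene (the repeat is printed above), and to Plk2, a cell cycle kinase gene. Near Creb3l1 the tags were 83.5 in WT and 52.0 in KO in unstimulated cells, 89.1 and 42.5 with HDL, and 63.7 and 65.9 with HDL + CpG. Near Plk2 they were 130 and 68.2, then 162 and 51.9, then 97.03 and 112. At both sites WT tags were lowest and KO tags highest in the HDL + CpG libraries, on which the sites were selected.

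The simple repeats were then followed over the conditions. Of the simple or low-complexity repeats that were KO-high with HDL + CpG, 313 had a standard peak in all 3 conditions. Their median KO level was 11.7 tags per kb in unstimulated cells, 8.60 with HDL and 18.7 with HDL + CpG. Their median WT level was 16.8, 19.8 and 14.0 tags per kb. The median WT/KO at these sites was 1.58 and 2.47 in the first 2 conditions, and 10 of the 313 were KO-high with HDL. These sites were selected on the HDL + CpG libraries, which in part fixes their high KO and low WT levels there. The 234 simple or low-complexity repeats that were not KO-high with HDL + CpG had KO levels of 11.2, 8.02 and 12.6 tags per kb and WT levels of 16.2, 18.3 and 15.3. At the 75 LTR members followed in the same way the KO levels were closer to each other, at 15.6, 16.3 and 18.4 tags per kb, and 34 of 75 were KO-high with HDL. The 131 members off repeats had 16.4, 12.4 and 22.3 KO tags per kb and 21.4, 24.3 and 17.2 WT tags per kb. Since each genotype has 1 library a condition, the treatment and the library cannot be told apart. The KO/WT depth ratio was also lowest with HDL + CpG, and its part in the count was not tested.

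**Figure D3:**
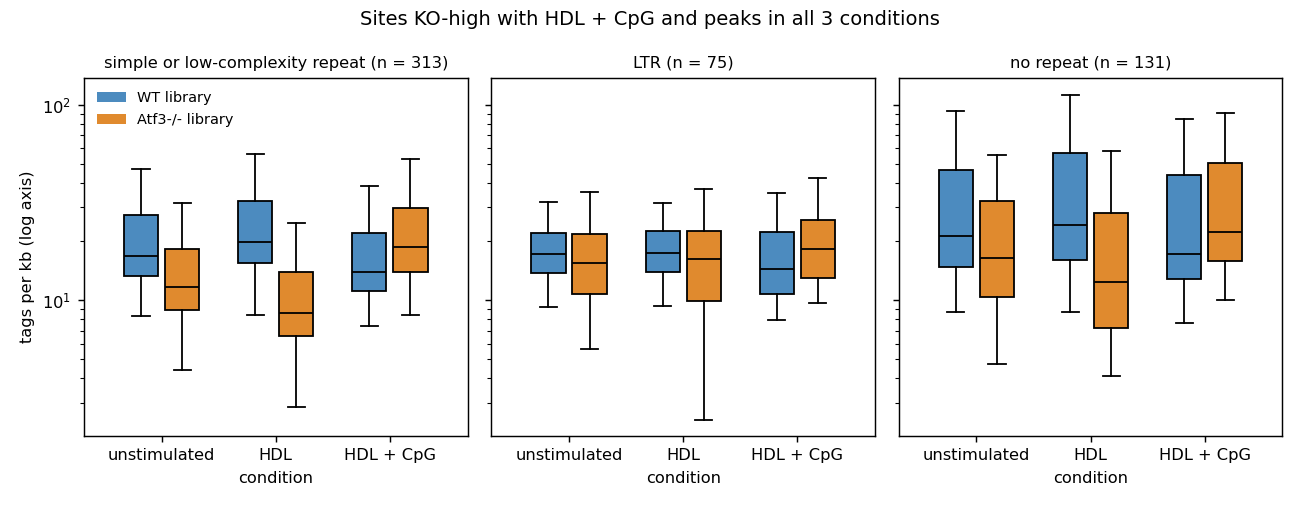
WT and KO tags per kb (log axis) in each condition at sites that were KO-high with HDL + CpG and had a peak in all 3 conditions, by repeat class. Boxes hold the middle part of the sites with the median as a line and whiskers reach the last site within 1.5 box heights, so at the 313 simple or low-complexity repeats the KO median goes from 11.7 and 8.60 to 18.7 tags per kb, while the LTR medians stay between 15.6 and 18.4.

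Position relative to genes was compared next. Most members were intergenic, at 187 of 239 (78.2%) in unstimulated cells, 170 of 232 (73.3%) for HDL and 530 of 819 (64.7%) for HDL + CpG. The remaining peaks were intergenic at 59.7%, 54.7% and 55.3% (odds ratios 2.43, 2.27 and 1.48, adjusted p = 6.77e-08, 6.77e-08 and 2.37e-06, Fisher's exact test over 9 tests). Introns held 47, 52 and 266 members, a smaller share than among other peaks (19.7% against 35.1%, 22.4% against 37.7% and 32.5% against 36.6%, adjusted p = 1.90e-06, 2.37e-06 and 0.0338 by Fisher's exact test). Promoters held 2, 5 and 14 members (0.837%, 2.16% and 1.71%, against 3.47%, 5.34% and 5.58%, adjusted p = 0.0268, 0.0338 and 1.90e-06 by Fisher's exact test). All promoter peaks were in the class without a repeat. They were KO-high at 2.41%, 1.89% and 8.43%, beside 5.28%, 2.08% and 10.5% for that whole class. Within it introns stood at 3.11%, 0.888% and 7.31%, and intergenic peaks at 7.27%, 2.98% and 13.5%. Position was not tested within this class. With HDL + CpG the odds ratio for introns turned from 0.834 to 1.20 with at least 100 reads and to 1.07 with a MACS score of at least 60, and the intergenic call was lost under both (1.04 and 1.21). The promoter calls in unstimulated cells and with HDL were lost under each of these settings as well. The median distance to the nearest transcription start site was 78.3 kb against 39.5 kb, 51.6 against 30.1 kb and 62.8 against 27.5 kb (adjusted p = 3.00e-05, 6.00e-05 and 3.00e-05, permutation tests with 100000 resamples, smallest p possible 1.00e-05). The GC content of the 201 bases at the centre was lower in members, by a median 44.8% against 47.8% and 42.8% against 47.8% in the first 2 conditions (adjusted p = 1.50e-05 for both, permutation test). With HDL + CpG the difference was 47.3% against 47.8% (adjusted p = 0.271, permutation test).

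The promoter members with the most KO tags were as follows. The snoRNA gene Snord37 had 19.7 WT and 24.9 KO tags in unstimulated cells (interval of WT/KO 0.594 to 1.04) and 28.7 and 31.0 with HDL (0.727 to 1.17). Copies of Snord116l1, a snoRNA gene of a repeated cluster on chromosome 7, were members in all 3 conditions with WT/KO of 0.913, 0.946 and 0.976, at windows with a median of 2 or 3 genome copies. Speer7-ps1, a pseudogene in a duplicated region of chromosome 5, had 254.7 WT and 287 KO tags for HDL (interval of WT/KO 0.822 to 0.961) and 262 and 277 for HDL + CpG. The histone gene Hist1h4h had 19 and 21.9 tags with HDL + CpG. Snord116l1 and Speer7-ps1 have copies that share sequence, so the copy that gave a read is uncertain.

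AP-1 sequence was nearly absent from the members. The heptamer TGAGTCA, searched on both strands within 100 bp of the centre, was found in 1 of 239 members in unstimulated cells (0.418%, 0.0739 to 2.33) against 253 of 2335 other peaks (10.8%). With HDL it was found in 2 of 232 (0.862%) against 17.8%, and with HDL + CpG in 16 of 819 (1.95%) against 22.4%. The odds ratios were 0.0346, 0.0402 and 0.0691 (adjusted p = 1.94e-10, 1.59e-16 and 4.83e-55, Fisher's exact test), and all autosomal peaks together held it at 9.87%, 17.0% and 17.7%. Windows shifted by 1000 bp held it at 1.67%, 2.37% and 3.48% for members, so the members' centres did not exceed their surroundings. Among peaks without a repeat the contrast remained, at 0 of 54 members (which allows up to 5.56%) against 21.4%, 0 of 57 (up to 5.26%) against 26.8%, and 11 of 190 against 32.4% (adjusted p = 5.45e-06, 6.15e-08 and 5.20e-17, Fisher's exact test chosen after the values were seen). Set against the other peaks with WT/KO under 2, which held the heptamer at 4.99%, 11.2% and 9.25%, members still had less (odds ratios 0.0801, 0.0688 and 0.195, adjusted p = 2.39e-04, 8.28e-09 and 1.81e-12, Fisher's exact test chosen after the values were seen). Peaks with WT/KO of 2 or more held it at 21.03%, 20.4% and 36.6%.

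The other sequences are given as shares only. The CRE octamer TGACGTCA was found in 0 members of any condition, which allows up to 1.26%, 1.29% and 0.366%, and in 0.2998%, 0.763% and 0.918% of other peaks. TGATGCAA, a composite C/EBP-ATF octamer, was found in 0, 4 and 5 members against 2.57%, 3.16% and 2.35% of others. GAGGAAGT, bound by the macrophage factor PU.1, was found in 4, 1 and 2 members (1.67%, 0.431% and 0.244%) against 2.70%, 4.70% and 4.85%, and over all autosomal peaks in 2.60%, 4.51% and 3.78%. TTAGGG repeated directly was found in 0 and 0 members and in 72 of 819 with HDL + CpG (8.79%), against 6.00%, 3.24% and 2.57% of others. No overlap between these sequences was counted, and a match is a description of letters and not of binding.

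Members also lay more frequently on sequence with several genome copies. For each 201-base window, runs of 51 bases placed every 15 bases were looked up on both strands of the assembled genome, and a window was called multi-copy when at least 50% of them occurred more than once. This held for 100 of 239 members (41.8%) against 19.1% of others in unstimulated cells, 116 of 232 (50%) against 12.1% with HDL, and 245 of 819 (29.9%) against 15.2% with HDL + CpG (odds ratios 3.06, 7.27 and 2.39, adjusted p = 2.83e-14, 1.54e-41 and 1.12e-19, Fisher's exact test chosen after the values were seen). The gap was smaller against other peaks with WT/KO under 2, which were multi-copy at 24.4%, 21.8% and 23.7%. This nearer comparison was not tested. Peaks with WT/KO of 2 or more were multi-copy at 9.75%, 8.30% and 5.90%. The satellite peaks at Chl1 and Dpy19l1 were not multi-copy by this measure, since most of their 51-base runs occur once in the assembled genome. IAPEy-int peaks were multi-copy at 81.8%, 73.8% and 74.1%, and GA or TC repeats at 27.9%, 26.6% and 28.7%.

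**Figure D4:**
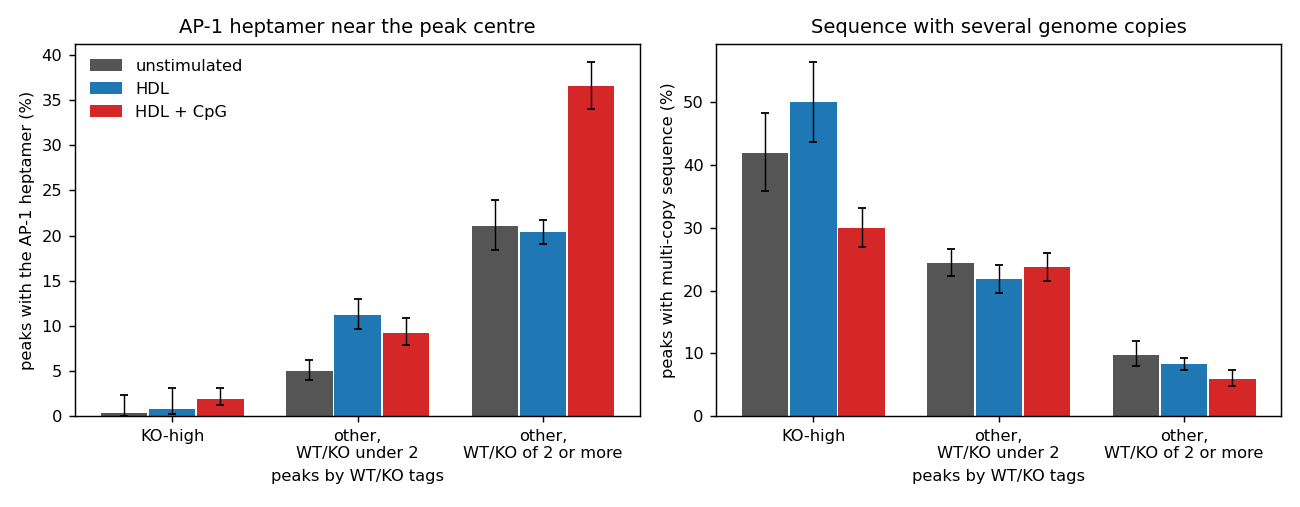
Share of autosomal standard peaks with TGAGTCA within 100 bp of the centre (left, percent) and with multi-copy sequence (right, percent), with Wilson 95% intervals, for KO-high peaks and other peaks split at WT/KO of 2. The AP-1 share goes from 0.418%, 0.862% and 1.95% in members to 21.03%, 20.4% and 36.6% in peaks with WT/KO of 2 or more, and the multi-copy share goes the opposite way.

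Members recurred in the WT lists of the other conditions. A standard peak of both other conditions overlapped 176 of 239 members in unstimulated cells (73.6%) against 52.6% of others, 179 of 232 with HDL (77.2%) against 25.2%, and 613 of 819 with HDL + CpG (74.8%) against 29.1% (odds ratios 2.52, 10.0 and 7.26, adjusted p = 2.32e-10, 5.06e-58 and 3.89e-121, Fisher's exact test). With at least 100 reads the odds ratio in unstimulated cells was 1.22 and no longer passed.

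The excess of KO tags was then read in libraries that had no part in choosing the members. Of 1857 peaks paired one to one between unstimulated cells and HDL, 203 were KO-high in the first and 75 of these also with HDL (36.9%, 30.6 to 43.8), where 10.2% of all pairs were KO-high and 6.89% of those not KO-high in unstimulated cells (odds ratio 7.92, with an adjusted p = 2.23e-28 by Fisher's exact test). Read back, 10.9% of these pairs were KO-high in unstimulated cells and 39.7% of the HDL members were. Between unstimulated cells and HDL + CpG, 102 of 193 members were KO-high in both (52.8%) against 39.4% (odds ratio 1.72, adjusted p = 4.36e-04 by Fisher's exact test), with 41.1% of the 1580 pairs KO-high with HDL + CpG and 12.2% in unstimulated cells. Between HDL and HDL + CpG it was 95 of 193 (49.2%) against 30.1% (odds ratio 2.25, adjusted p = 2.44e-07 by Fisher's exact test), with 31.8% of the 2219 pairs KO-high with HDL + CpG and 8.7% with HDL. With at least 100 reads neither of these last 2 comparisons passed (odds ratios 1.09 and 1.27). The excess chosen in unstimulated cells, with a median WT/KO of 0.906, was at 1.10 with HDL against 2.37 for other pairs, and that chosen with HDL was at 1.07 in unstimulated cells against 1.70. Of the 203 members chosen in unstimulated cells, 48 (23.6%) reached a WT/KO of 2 with HDL, and the upper quartile was 1.93. Their simple repeats stood apart, with a median WT/KO of 2.33 with HDL over 47 sites that had a peak in all 3 conditions. Members chosen with HDL + CpG had a median WT/KO of 2.26 with HDL, against 2.36 for the other pairs, and 426 of 705 reached 2 there.

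**Figure D5:**
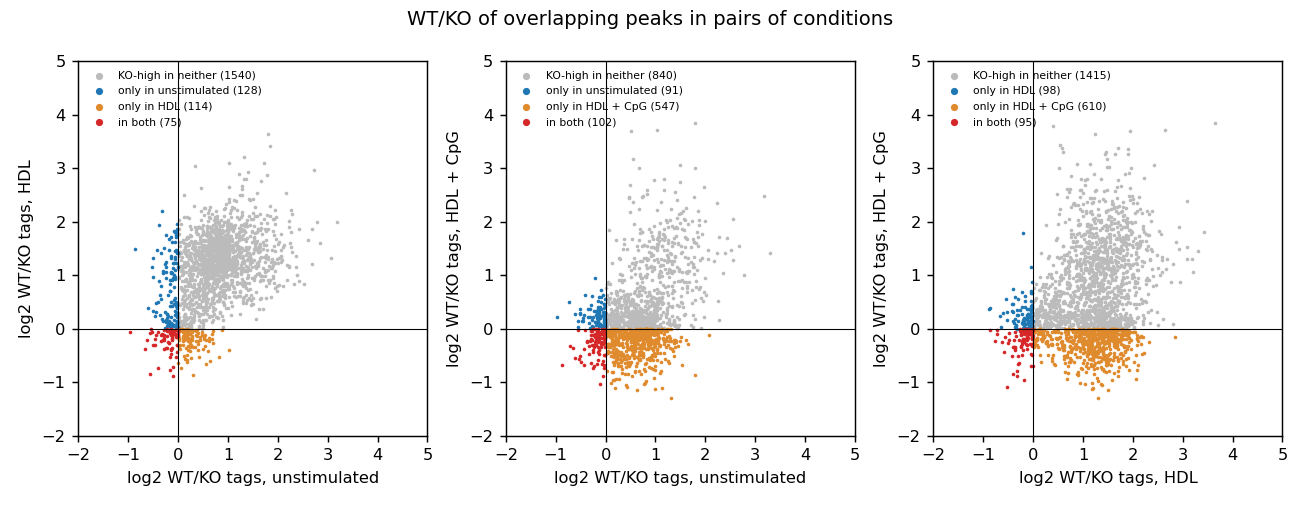
WT/KO (log2 axes) of autosomal peaks that overlap one to one in 2 conditions, with quadrants at equal tags, for the 3 pairs of conditions. In the first panel 75 peaks lie below 0 on both axes, and in the last panel 610 peaks that were KO-high only with HDL + CpG spread far to the right on the HDL axis (1 pair with 0 KO tags is not drawn).

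Joined by overlap, the members of the 3 lists formed 1055 sites. Of these, 863 (81.8%) were KO-high in 1 condition, 152 (14.4%) in 2 and 40 (3.79%) in all 3. The sites found with HDL + CpG alone numbered 661. Over all autosomal peaks the KO-high shares were 9.29%, 4.57% and 23.1% (unstimulated, HDL, HDL + CpG). A site without a standard peak in a condition could not be KO-high there, so these counts do not make a site specific to 1 condition. Among the 40 recurrent sites, 20 lay on LTR elements, 11 of which were IAPEy-int, 7 off repeats, 6 on LINE elements, 4 on simple repeats and 2 on satellites. Another was on a SINE element. By position 32 were intergenic and 8 intronic, 26 had multi-copy sequence and 2 held the AP-1 heptamer. For comparison, LTR elements held 294 of 2574, 419 of 5080 and 350 of 3541 autosomal peaks, and 29.3%, 36.2% and 12.3% of members. Members were multi-copy at 41.8%, 50% and 29.9%, and held the heptamer at 0.418%, 0.862% and 1.95%. No test was run on the 40 sites.

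The recurrent sites with the most KO tags after Chl1 are described in the order of their levels. The IAPEy-int site nearest to Armc4, a gene of cilia, had 380 WT and 442 KO tags in unstimulated cells, 390 and 427 with HDL, and 364 and 404 with HDL + CpG. The Lx LINE site nearest to Gm17019 had 367 and 412, 364 and 386, and 373 and 383 tags. The IAPEy-int site nearest to Gm8267 had 337 and 374, 345 and 374, and 326 and 359 tags. KO tags above WT tags in every condition are what the choice of these sites requires. The SYNREP_MM site nearest to Dpy19l1, a glycosyltransferase-like gene whose satellite sequence is printed above, had 237 and 271, 227 and 272, and 258 and 259 tags. A second site nearest to Gm17019, centred on a CA repeat in 2 lists, had 207 and 212, 225 and 228, and 208 and 218 tags. A multi-copy site off annotated repeats nearest to H2-M10.4, a class Ib MHC gene, had 138 and 170, 144 and 155, and 137 and 141 tags. Osbpl10, an oxysterol-binding protein gene, had an MURVY-int site in intron 2 with 99.9 and 102, 109 and 121, and 99.1 and 113 tags. The sites nearest to Rpap3 (IAPEy-int, KO tags 67.4 to 80.5) and Nbea (GSAT_MM or TC repeat, KO tags 62.9 to 77.2) completed the 10. The intervals of WT/KO use the reads on which these sites were selected. They allow for neither that choice nor the number of sites, and are given as a description. The interval of WT/KO excluded equal tags in every condition at Chl1, Armc4 and Gm8267, and in unstimulated cells and with HDL at Dpy19l1. It did so in unstimulated cells alone at Rpap3 (0.707 to 0.956), H2-M10.4 and the Lx site of Gm17019. At Osbpl10 this held with HDL + CpG alone. At Nbea and the second Gm17019 site the interval included equal tags in every condition.

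Nearest genes were counted against the share of KO-high peaks in each list, without a test. The members were nearest to 226, 205 and 741 genes, and 51 genes recurred in all 3 conditions. The last count is given without its counterpart over all peaks and is not read as a result. Peaks nearest to olfactory and vomeronasal receptor genes, which lie in repeat-rich clusters, were KO-high at 11 of 47 (23.4%), 13 of 71 (18.3%) and 22 of 60 (36.7%), beside 9.29%, 4.57% and 23.1% over all peaks. Peaks nearest to neuronal adhesion, receptor and synapse genes were KO-high at 8 of 73 (10.96%), 14 of 108 (13.0%) and 26 of 75 (34.7%). Their members included Nlgn1, a synaptic adhesion gene, with 107 WT and 112 KO tags, and Cdh26 on a TC repeat with 32.3 and 45.3 tags, both with HDL + CpG. Zinc finger genes had 1 of 22, 3 of 49 and 8 of 39. Of peaks near cell cycle and p53 pathway genes, 1 of 17 and 1 of 25 were KO-high (both nearest to Ccng1), and 4 of 20 with HDL + CpG (nearest to Cdk8, Gadd45b and Plk2). At the 2 peaks of the ribosomal RNA locus KO tags exceeded WT tags in 0 cases in each condition.

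Genes of macrophage function had 0 KO-high peaks in unstimulated cells and with HDL. This was 0 of 18 and 0 of 35 peaks for bZIP factors, 0 of 14 and 0 of 33 for macrophage identity and receptor genes, 0 of 13 and 0 of 32 for cytokines and chemokines, and 0 of 7 and 0 of 24 for lipid handling. A count of 0 allows up to 16.7% and 8.57%, 21.4% and 9.09%, 23.1% and 9.38%, and 42.9% and 12.5%, all above the 9.29% and 4.57% of all peaks, so a smaller share was not detectable at these numbers in either condition. With HDL + CpG the counts were 3 of 32, 1 of 27, 3 of 21 and 1 of 17, beside 23.1% over all peaks. The cytokine members were Ccl2, the monocyte chemokine, with 8.29 WT and 9.26 KO tags at its promoter, the neutrophil chemokine Cxcl5 with 14.0 and 14.5 on a TC repeat in intron 3, and Il15 with 16.2 and 18.5 on an LTR 114 kb away. In the other conditions the Ccl2 promoter held 8.35 WT and 5.03 KO tags (unstimulated, interval of WT/KO 0.998 to 2.74) and 10.8 and 6.36 (HDL, 1.08 to 2.68). The bZIP members were Creb3l1, Maf (5.05 and 6.95 tags, a TG repeat 282 kb away) and Jun, an AP-1 subunit (8.29 and 8.42 tags, an LTR 34.9 kb away). The lipid member was Acsl1, an acyl-CoA synthetase, with 9.70 and 11.4 tags on a TG repeat in intron 1. None of these had an interval that excluded equal tags.

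At Atf3 itself (mm9 chr1:192994175-193007219, minus strand) none of the 11 standard peaks of the 3 lists nearest to the gene was KO-high. The promoter peak had 16.7 WT and 9.66 KO tags in unstimulated cells, 21.9 and 12.1 with HDL, and 15.4 and 7.79 with HDL + CpG. Within 5 Mb to each side of the gene, where DNA linked to the disrupted allele would lie, 1 of 19, 1 of 26 and 6 of 22 peaks were KO-high (5.26%, 3.85% and 27.3%), beside 9.29%, 4.57% and 23.1% over the autosomes. By chromosome the share ranged from 4.67% to 13.7% in unstimulated cells, 2.65% to 8.59% for HDL and 15.7% to 37.8% for HDL + CpG. Chromosome 1 had the highest value in the first 2 conditions, and chromosome 18 in the last. The Cd36 intron 1 peak, at the scavenger receptor gene, was not a member in any condition (9.96 against 3.44, 17.9 against 5.90 and 23.1 against 6.32 tags).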

How the data were processed

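The submitters' notes name CASAVA 1.8, Bowtie 0.12.8, HOMER 4.3, MACS 1.4.2 and mm9. The authors concatenated 3 replicates, called peaks on WT libraries and annotated them. The deposited score is that of MACS, and the deposited signal is the number of tags per peak, scaled by the authors to 10000000 reads. Dividing tags by what 1 read is worth, given the totals in the headers, returned reads (all within 0.005 tags). The deposited WT/KO column and the barcode list were not used. Members were peaks on chromosomes 1 to 19 with KO tags above WT tags. The members, lists and named-peak rule were chosen with earlier results of these data known. Named peaks had, per condition, the 5 largest KO minus WT tags, the 5 lowest WT/KO with at least 30 WT reads and up to 3 promoters by KO tags. They also were the 10 recurrent sites with most KO tags, up to 3 peaks per gene list (of 9 lists), the peaks next to the threshold and those of Atf3, Cd36 and Cdk8. Tests chosen later are named as such. Shares have Wilson and ratios exact 95% intervals, and the limit beside a count of 0 is 3 counts of the total. Tests were Fisher's exact test (two-sided) for shares, permutation with 100000 resamples for medians and Zelen's exact test for odds ratios of different conditions, all with Benjamini-Hochberg adjustment, and tested on simulated data. Peaks share libraries and repeat families, so p-values describe lists. The NCBIM37 assembly contained all 11195 autosomal peaks, and 91.6% of 9938 distances matched an annotated start within 100 bp. The alternatives were KO tags at least 25% above WT tags, at least 100 reads, a score of at least 60, scaling without peak reads, no satellites or simple repeats, merging within 1000 bp, all chromosomes, promoters within 1000 bp, a motif window of 50 bp and an overlap of 50%. Software was Python 3.11.15 with scipy 1.17.1, numpy 2.4.6, numba 0.67.0, pysam 0.24.0, pandas 2.3.3 and matplotlib 3.10.9.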

Additional observations from a re-analysis of the deposited data

Results flagged for a closer look

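The odds ratios of repeat classes among KO-high peaks were compared between the peak lists of the conditions. Zelen's exact test was used, chosen after the values were seen and adjusted over 18 tests. By Zelen's exact test, for simple or low-complexity repeats the odds ratio of 5.07 with HDL + CpG differed from 0.687 in unstimulated cells (adjusted p = 7.94e-31) and from 0.303 with HDL (adjusted p = 4.09e-44), and the last 2 differed from each other (adjusted p = 0.00570). By Zelen's exact test, for LTR elements the odds ratio of 7.65 with HDL differed from 3.9 in unstimulated cells (adjusted p = 0.00467) and from 1.4 with HDL + CpG (adjusted p = 4.27e-17), and 3.9 differed from 1.4 (adjusted p = 3.16e-06). By Zelen's exact test, for LINE elements 0.885 with HDL + CpG differed from 2.02 in unstimulated cells (adjusted p = 0.00195) and from 2.93 with HDL (adjusted p = 6.07e-06). By Zelen's exact test, for satellites 47.9 with HDL differed from 2.91 in unstimulated cells (adjusted p = 1.67e-04) and from 6.26 with HDL + CpG (adjusted p = 0.00623). By Zelen's exact test, for peaks without a repeat 0.411 in unstimulated cells differed from 0.207 with HDL + CpG (adjusted p = 7.37e-04). Each value rests on 1 pooled library per genotype and condition, so the p-values compare lists of peaks and not treatments. The lists also share sites, with 1857, 1580 and 2219 peaks paired one to one in the 3 comparisons given above. Zelen's exact test takes the lists as independent, and this sharing was not allowed for. Odds ratios of one class also move when another class grows, since the shares add up within a list.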

How the results depend on the processing

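Of 321 values under the alternatives, 278 were counted as unchanged. Tested values among them kept their side of the threshold, and counts stayed within 1.5 times. Where a result passed in both settings, its direction was kept as well. Where it passed in neither, a change of direction was not counted. SINE in unstimulated cells, for example, went from 1.11 to 0.231 with KO tags at least 25% above WT tags. The number of KO-high peaks fell to 40, 50 and 275 (unstimulated, HDL, HDL + CpG) with KO tags at least 25% above WT tags and to 142, 152 and 495 with a score of at least 60. With HDL + CpG it was 509 with at least 100 reads and 409 without satellites and simple repeats. With this margin, which leaves fewer members, the threshold was missed in unstimulated cells for LINE (odds ratio 1.81), simple repeats (0.948), promoters (0.767), introns (0.488), intergenic peaks (2.19) and recurrence (1.96), with HDL for LINE (2.36), satellites (2.54) and promoters (0.370), and with HDL + CpG for LTR (1.13) and introns (0.809). Satellites with HDL + CpG turned to 0.287, and the GC difference in unstimulated cells to 0.249 percentage points. With at least 100 reads it was missed in unstimulated cells for peaks without a repeat (0.790), promoters (0.399) and recurrence (1.22), for promoters with HDL (0.709), and with HDL + CpG for LTR (1.07) and intergenic peaks (1.04), while introns turned to 1.20. KO excess shared with HDL + CpG was then 1.09 for unstimulated cells and 1.27 for HDL. With a score of at least 60 it was missed in unstimulated cells for peaks without a repeat (0.691) and promoters (0.225), with HDL for promoters (0.589), and with HDL + CpG for LTR (1.30), intergenic peaks (1.21) and KO excess shared with unstimulated cells (1.35), while introns turned to 1.07. Without satellites and simple repeats, whose removal changes the remaining shares by construction, LINE with HDL + CpG turned to 1.60, SINE passed at 1.91 and the GC difference passed at -2.49 percentage points. With all chromosomes satellites passed in unstimulated cells (3.01), as did GC with HDL + CpG (-0.995), and promoters in unstimulated cells missed it (0.385). Apart from these constructions the cause was not tested. The AP-1 contrast, the distance to start sites and the excess of LTR elements in unstimulated cells and with HDL passed under every alternative run. No paired analysis was possible because each condition has 1 pooled library per genotype, and no replicate could be left out. Depth limits single members: with a median of 49 to 64 WT reads, most differences between the libraries lie within counting error.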
